A study of Danio rerio with 6 samples.

Results

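The 6 genes described here are members of the cryptochrome and photolyase family (cry5, cry-dash and cry2a), of the period family (per2 and the gene model CR391991.1), and the clock output factor tefb. They were taken by symbol from the 670 genes of the deposited table, and all 6 symbols were found. Messenger RNA was sequenced from pools of whole zebrafish larvae of the nacre strain, in 3 libraries from larvae kept in 3 mM H2O2 and in 3 libraries from untreated larvae. By the sample labels the larvae were 3 days old and treated for 2 hours, by the methods they were 4 days old and treated for 3 hours, and the files do not settle which is right. By the methods, larvae were anesthetized in tricaine for the treatment, and embryos were raised with alternating light and dark. The methods do not say whether the untreated larvae were anesthetized too. Neither source gives the hour at which a group was collected or whether the larvae were in the light during treatment.

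The circadian clock of vertebrates is a loop of transcription. Clock and Bmal proteins drive the period and cryptochrome genes through E-box elements, and the period and cryptochrome proteins then hold back Clock and Bmal. In zebrafish most tissues sense light directly, and light induces per2, cry1a and several photolyase genes, partly through D-box elements bound by Tef proteins. Work on zebrafish cells has linked this light response to the redox state of the cell.

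The values are CPM, the read count of a gene scaled to the same total in every library, which the authors deposited as log2(CPM + 1). CPM is not corrected for transcript length, so levels were compared between libraries and not between genes. Ratios of a gene to another within a library are given for their shift between the groups, and not as relative levels of the genes. Only genes whose p was below 0.05 and whose log2 CPM exceeded 1 in these same libraries had been kept in the table. Every gene in it had therefore been chosen for a difference between these groups, and no test made here is independent of that choice. The steps between neighbouring values imply scaling totals of 24727594 to 30400463 reads per H2O2 library and 31811527 to 39766947 reads per untreated library. Whether these are full read totals or totals adjusted in normalization was not tested. If they are read totals, every treated library was the shallower, and the part of depth in the results was not tested. In whole larvae, fewer cells of a type cannot be told apart from less RNA per cell.

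With H2O2, 5 of the 6 genes were higher, beside 61.8% of the table, and cry2a alone was lower, beside 38.2%. In all 6 the H2O2 libraries lay entirely on one side of the untreated libraries, as they did in 93.9% of the table (58.4% on the higher side and 35.5% on the lower side), so the separation says nothing particular about these genes. By CPM, cry5 was 3.25-fold, CR391991.1 3.08-fold, per2 2.70-fold, cry-dash 2.52-fold and tefb 1.44-fold the untreated mean, and cry2a was at 0.497 of it. None of the 6 passed an adjusted p of 0.05 in limma, with Benjamini-Hochberg adjustment over 24050 tests, nor did any of the 670 genes (0%). The lowest adjusted p from limma in the table was 0.0675, so this count depends on the threshold. The estimate of spread in limma drew only on the 670 selected genes. The study itself tested with edgeR and, for some of its gene sets, used a looser limit on the false discovery rate than 0.05. At an unadjusted p under 0.05, limma counted all 6, against 55.5% of the table as higher and 37.8% as lower.

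**Figure D1:**
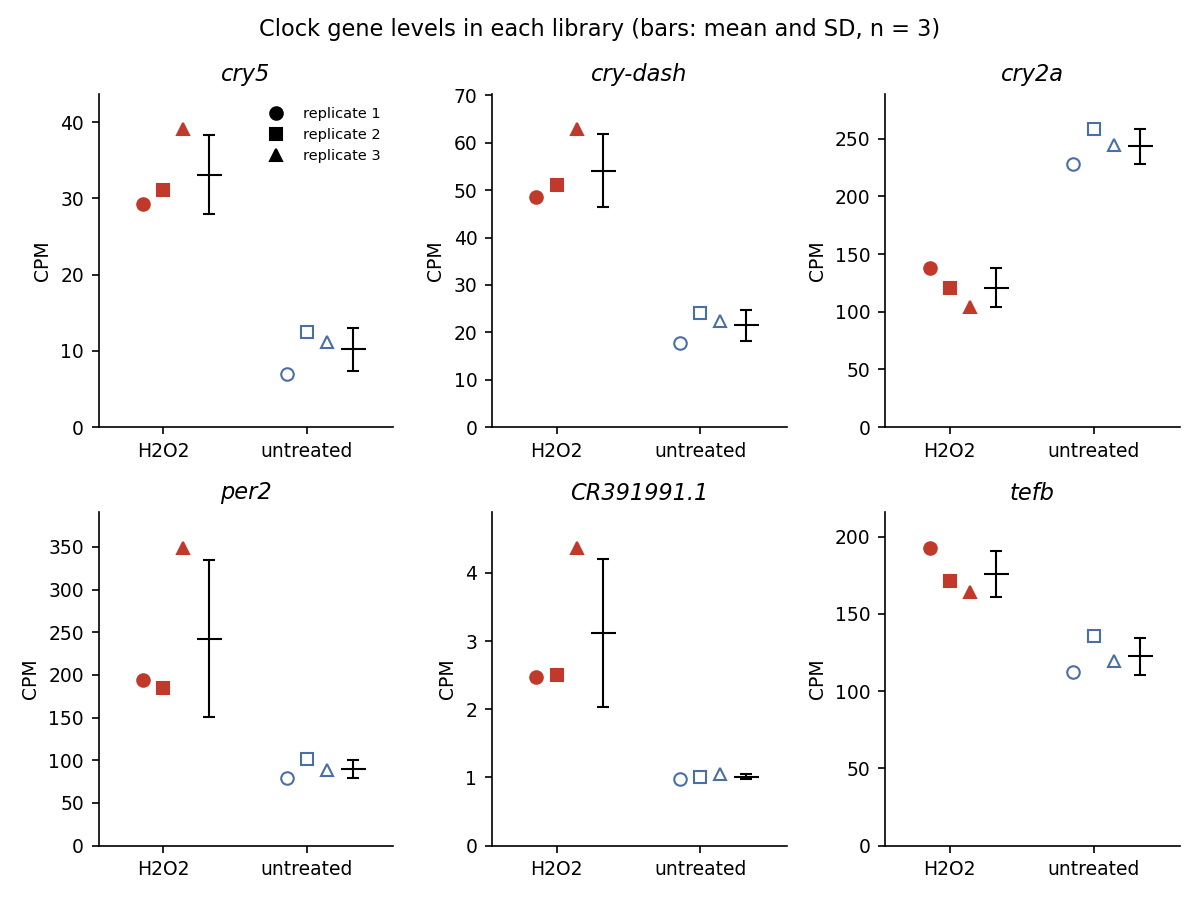
CPM (vertical axis, from 0, a scale of its own for each gene) of the 6 clock genes in the 3 H2O2 libraries (filled) and the 3 untreated libraries (open). Each point is a library, and the bars give the mean and SD of n = 3. The groups do not overlap in any of the genes, and cry2a is the only one in which the H2O2 libraries are the lower.

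Among the cryptochromes, cry5 encodes a photolyase-like protein, which RefSeq also lists as a 6-4 photolyase (z6-4phr), an enzyme type that repairs ultraviolet damage to DNA with the energy of light. On the Zv9 genome, to which all positions here refer, the gene (ENSDARG00000019498) lies on the reverse strand of chromosome 10 from 40632410 to 40647770. In the H2O2 libraries 1 to 3 it stood at 29.3, 31.1 and 39.1 CPM, and in the untreated libraries at 7.01, 12.4 and 11.1 CPM. The lowest H2O2 library was 2.36-fold the highest untreated one. On the log2(CPM + 1) scale the difference was 1.63 (standard error 0.21, 95% interval 1.16 to 2.11, adjusted p = 0.0775 from limma), which is the seventh of the positive differences in the table. It was 1.41 without untreated replicate 1, the lowest library.

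DASH cryptochromes are relatives of the photolyases that act on damage in single-stranded DNA. The cry-dash gene (ENSDARG00000002396) lies on the reverse strand of chromosome 24 from 20802474 to 20816926. Its level was 48.5, 51.0 and 62.8 CPM in the H2O2 libraries, against 17.8, 24.1 and 22.5 CPM in the untreated libraries. The difference was 1.30 on the log2(CPM + 1) scale (standard error 0.16, 95% interval 0.94 to 1.66, adjusted p = 0.0675 from limma). Several genes of the table shared that adjusted p, and none had a lower one. Within a library, the log2 ratio of CPM of cry5 to cry-dash was −0.71 ± 0.02 (SD, n = 3) with H2O2, against −1.10 ± 0.21 (SD, n = 3) in untreated larvae. At 887 to 966 reads of cry5 per H2O2 library, counting error alone is larger than 0.02, so this SD does not show a fixed ratio.

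The cry2a protein, by contrast, represses transcription by Clock and Bmal in zebrafish cell assays and is not known as a repair enzyme. The reference tables name this gene cry3a. The gene (ENSDARG00000069074) lies on the forward strand of chromosome 8 from 21763082 to 21790677. Its level was 138, 121 and 104 CPM in the H2O2 libraries, and 228, 258 and 245 CPM in the untreated libraries. These are 2584 to 4182 reads in H2O2 libraries and 7242 to 10268 reads in untreated libraries, so counting error is small beside the spread between pools. The difference of −1.01 (standard error 0.14, 95% interval −1.33 to −0.69, adjusted p = 0.0849 from limma) was the twelfth of the negative differences by size. The log2 ratio of cry5 to cry2a within a library was −1.87 ± 0.42 with H2O2 and −4.62 ± 0.35 in untreated larvae (SD, n = 3 each), a shift of 2.75 that does not depend on the scaling of the libraries. As cry5 had the largest positive difference of the genes described and cry2a the only negative one, a large shift followed from the choice of this pair.

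The other cryptochromes in the table differed from cry2a in sign. The difference was 0.66 (standard error 0.13) for cry1b and 0.59 (standard error 0.19) for cry1a, and that of cry1a was 0.39 without H2O2 replicate 3. For cry2b it was 0.44 (standard error 0.21), with an overlap between groups, as H2O2 replicate 3 stood at 18.7 CPM and untreated replicate 2 at 21.0 CPM. The difference of cry2b was 0.25 without H2O2 replicate 1 and 0.69 without H2O2 replicate 3. Within a library the log2 ratio of cry2a to cry2b was 2.18 ± 0.27 with H2O2 and 3.65 ± 0.11 in untreated larvae (SD, n = 3 each).

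Of the period genes, per2 encodes a clock repressor and is induced by light in zebrafish. The gene (ENSDARG00000034503) lies on the reverse strand of chromosome 2 from 48423772 to 48489514. It was measured at 194, 185 and 349 CPM with H2O2, against 79.4, 101 and 88.6 CPM without it. H2O2 replicate 3 thus stood far above the other treated libraries, while both of those were still at least 1.83-fold the highest untreated library. The difference was 1.37 (standard error 0.24, 95% interval 0.82 to 1.92, adjusted p = 0.213 from limma), and 1.08 without H2O2 replicate 3.

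The model CR391991.1 (ENSDARG00000078099) is an uncharacterized protein-coding gene that the file places in the period family, with a span of 393 bases on the forward strand of chromosome 2 from 48911934 to 48912326. It begins 422 kb beyond the higher coordinate of per2 on the same chromosome. As per2 is on the reverse strand, that coordinate is the start of per2. The model is in neither reference table. Its values rest on few reads. There were 75, 76 and 108 reads in the H2O2 libraries, or 2.48, 2.50 and 4.37 CPM, against 31, 40 and 35 reads, or 0.974, 1.01 and 1.06 CPM, in the untreated libraries. The 95% Poisson intervals, which cover counting error only, ran from 1.95 CPM upwards in the treated libraries and up to 1.47 CPM in the untreated libraries, and so did not meet. The difference was 1.00 on the log2(CPM + 1) scale (standard error 0.18, adjusted p = 0.226 from limma). At such low values this scale understates the change, and with 0.1 in place of 1 as the pseudocount the difference was 1.48.

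The model was higher with H2O2, as per2 was. Among the untreated libraries per2 was highest in replicate 2 and CR391991.1 in replicate 3. The 95% Poisson intervals of CR391991.1 in replicates 1 to 3 were 0.66 to 1.38, 0.72 to 1.37 and 0.74 to 1.47 CPM. They overlap, so the order of the untreated libraries in CR391991.1 is not resolved. The log2 ratio of CR391991.1 to per2 was −6.27 ± 0.06 with H2O2 and −6.46 ± 0.16 in untreated larvae (SD, n = 3 each), a shift of 0.19. At 31 to 108 reads of CR391991.1 per library, the counting error of a single ratio is larger than either SD, so this shift is not resolved. Both models had their highest value in H2O2 replicate 3. Reads of one period gene can be assigned to another where their sequences match, and this was not tested, so the value of CR391991.1 is uncertain as that of a separate gene. The third period gene of the table, per3, had a difference of 0.54 (standard error 0.13). It was at 83.8, 77.4 and 67.5 CPM with H2O2, against 49.9, 55.1 and 50.5 CPM without it.

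**Figure D2:**
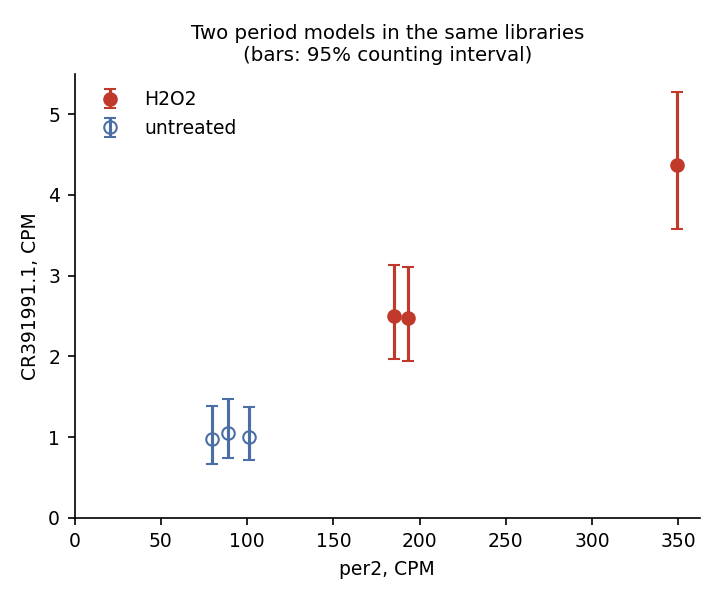
CPM of CR391991.1 (vertical axis) against CPM of per2 (horizontal axis) in each of the 6 libraries, H2O2 filled and untreated open. Bars are 95% Poisson intervals of the CR391991.1 reads and cover counting error only. The H2O2 libraries lie at 2.48 to 4.37 CPM of CR391991.1 and the untreated libraries at 0.974 to 1.06 CPM, and the library highest in per2 is highest in both models.

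The output factor tefb encodes a PAR bZip protein, a class of transcription factor that binds D-box elements and passes the rhythm of the clock on to other genes. The gene (ENSDARG00000038401) lies on the forward strand of chromosome 3 from 5651586 to 5669392. Its level was 193, 171 and 164 CPM in the H2O2 libraries, against 112, 136 and 120 CPM in the untreated libraries, so that the lowest treated library was only 1.21-fold the highest untreated one. The difference of 0.52 (standard error 0.13, 95% interval 0.23 to 0.82, adjusted p = 0.539 from limma) was close to 0.48, the median size of a difference in the table. Its paralog tefa had a difference of 0.67 (standard error 0.14). The Nfil3 proteins bind the same kind of element as repressors, and both of their genes in the table were lower with H2O2, nfil3-6 at −0.63 (standard error 0.13) and nfil3-2 at −0.39 (standard error 0.12). Within a library the log2 ratio of tefb to nfil3-6 was 3.52 ± 0.11 with H2O2 and 2.33 ± 0.13 in untreated larvae (SD, n = 3 each). The nfil3 models lie 12.5 kb apart on chromosome 3.

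**Figure D3:**
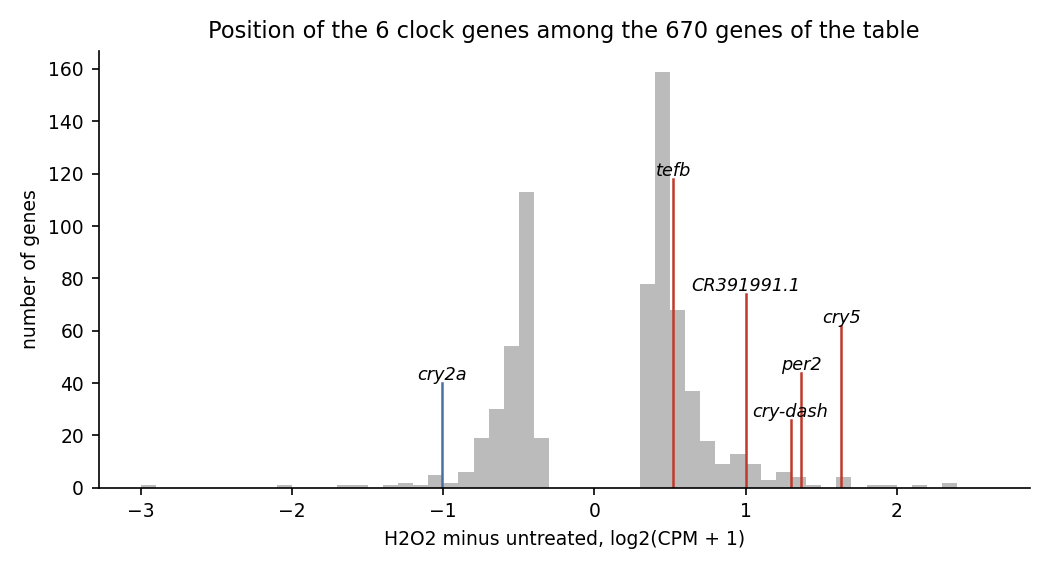
Number of genes of the table (vertical axis) by the difference between H2O2 and untreated means of log2(CPM + 1) (horizontal axis, bins of 0.1). Lines mark the 6 clock genes, and the height of a line carries no value. The gap around 0 comes from the selection of the table by p. The lines of cry5 at 1.63, per2 at 1.37 and cry-dash at 1.30 stand in the upper tail, tefb at 0.52 in the main peak, and cry2a at −1.01 in the lower tail.

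A wider list of 84 symbols of clock and light-induced genes had 19 genes in the table, the 6 above among them. Of these 13 were higher and 6 lower with H2O2, a median of 0.59, beside 61.8% higher, 38.2% lower and a median of 0.40 over the whole table. None of the 19 (0) had an adjusted p under 0.05 in limma, while the unadjusted p was under 0.05 in 12 higher and 6 lower genes, beside 55.5% and 37.8% of the table. The groups did not overlap in 12 higher and 5 lower genes, together 17 of 19, beside 58.4%, 35.5% and together 93.9% of the table, so neither count sets the list apart. The cryptochrome and photolyase genes (5 higher, 1 lower) and the Tef and Nfil3 genes (2 higher, 2 lower) held both directions. The other roles held 1 to 3 genes each, too few to read against the table's 61.8% higher and 38.2% lower, and direction was not tested against role. All 3 period genes were higher, among them the model CR391991.1, whose value is uncertain as that of a separate gene. Also higher were the Clock paralog npas2 at 0.65 (standard error 0.13) and the nucleotide excision repair genes ddb2 at 0.64 (standard error 0.15) and xpc at 0.62 (standard error 0.14), which recognize damaged DNA. The nuclear receptors of the second loop, which act on Bmal genes, were lower in 3 of 3 genes. These were nr1d1, a Rev-erb repressor, at −0.57 (standard error 0.20), rorca at −0.47 (standard error 0.14) and nr1d4a at −0.47 (standard error 0.17). The groups overlapped in nr1d1, and nr1d4a was at −0.29 without H2O2 replicate 2. The symbols on the list for bHLH repressors and for kinases and F-box proteins of the clock had 0 genes in the table, and those genes were not analysed here.

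**Figure D4:**
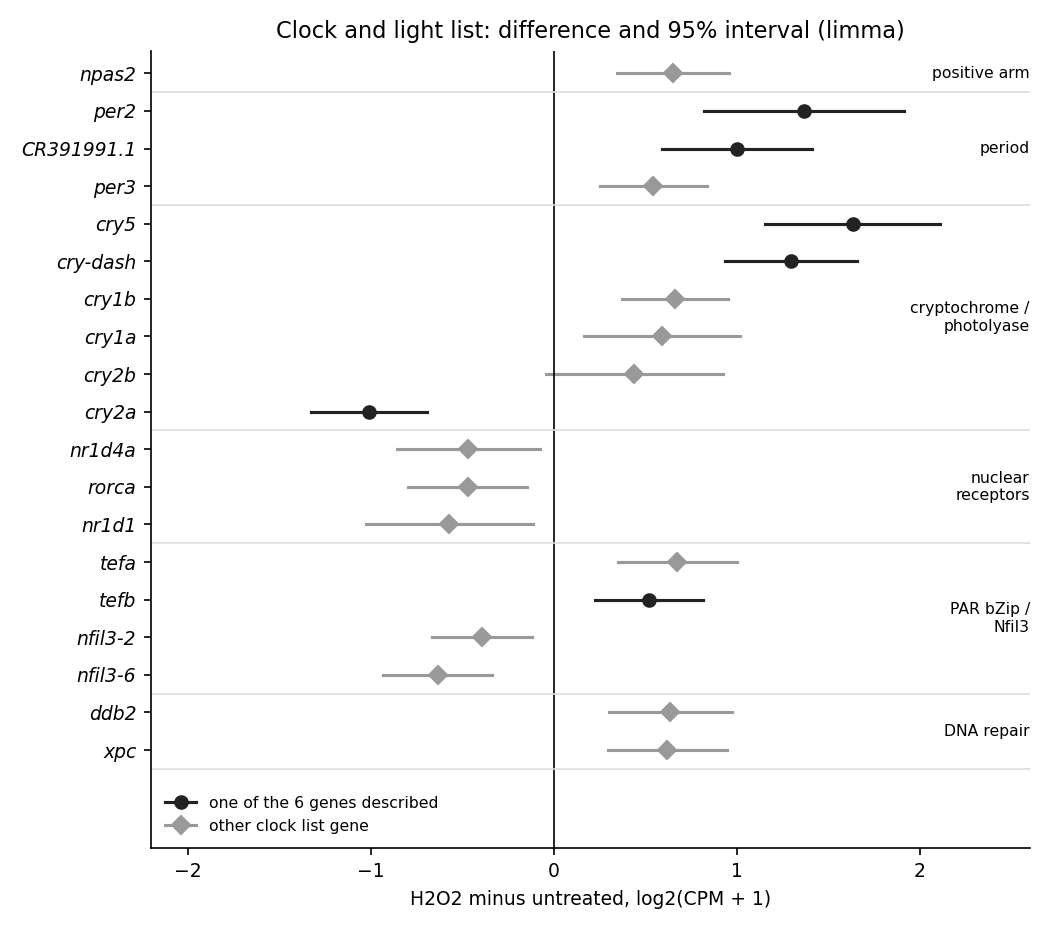
Difference between H2O2 and untreated means of log2(CPM + 1) with its 95% interval from limma (horizontal axis) for the 19 genes of the clock and light list in the table, grouped by role. Circles mark the 6 genes described one by one and diamonds the rest of the list. The intervals are not adjusted for the number of genes, and that of cry2b alone includes 0.

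Cells of the retina and the pineal gland hold strong clocks in fish larvae, so their markers were counted as well. Of 65 photoreceptor and pineal symbols 7 were in the table, all lower with H2O2 by a median of −0.71, beside 38.2% lower in the table, and 0 of the 7 were at 0 in any library. The groups did not overlap in 5 of the 7, a smaller share than the 93.9% of the table. The furthest were grk1b at −0.88 (standard error 0.17) and guca1c at −0.81 (standard error 0.22), a kinase and a calcium sensor of phototransduction. The difference of guca1c was −0.59 without untreated replicate 3 and −1.06 without untreated replicate 1. In all 7, untreated replicate 1 was the lowest and untreated replicate 3 the highest of the untreated libraries. The summed level of all 7 markers ranged from 83.0 to 113.1 CPM in the H2O2 libraries and from 113.4 to 186 CPM in the untreated libraries. The list of 28 keratinocyte symbols had only itgb4 in the table, at 103 to 198 CPM with H2O2 and 61.1 to 68.5 CPM without it. The paper reports that this gene also rose with H2O2 in cultured human keratinocytes, so its level cannot be read as the number of these cells. The remaining symbols of both lists were absent from the table, and those genes were not analysed here. The part of these cells in the clock gene values was not tested.

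The treated libraries were not ordered alike in all the genes. H2O2 replicate 3 was the highest treated library in 76.3% of the 414 higher genes of the table and the lowest in 12.8%. Among the 13 higher genes of the clock list it was the highest in 6, namely per2, CR391991.1, cry1a, cry5, cry-dash and npas2, and the lowest in 6, namely tefb, tefa, per3, cry1b, cry2b and ddb2. In log2(CPM + 1) it stood 0.88 above the mean of the other treated libraries in per2, and fell by 0.15 below it in tefb. In cry2a it was the lowest, and the farthest from the untreated libraries. Among the untreated libraries, replicate 1 was the lowest in all 6 genes, including cry2a, and in 16 of the 19 genes of the list, beside 47.8% of the table.

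**Figure D5:**
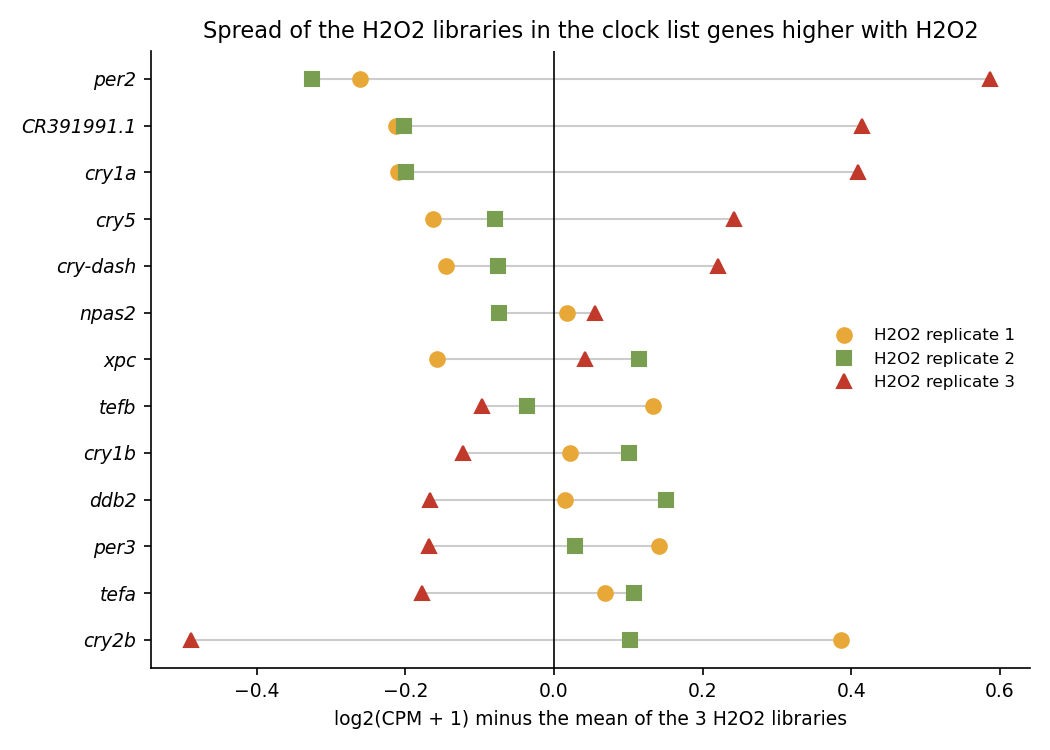
Position of each H2O2 library relative to the mean of the 3 H2O2 libraries (horizontal axis, log2(CPM + 1)) in the 13 genes of the clock list that were higher with H2O2. Genes are sorted by how far replicate 3 stood above the mean of replicates 1 and 2. Replicate 3 is at the right end from per2 down to npas2 and at the left end from tefb down to cry2b.

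Profiles were compared as the value in each library less the gene's own untreated mean, by the root mean square distance over the 6 libraries in log2(CPM + 1). The distance includes the difference between the groups, so near genes are largely those with a similar difference, such as wdr76 and cry-dash at 1.30 each. Shared regulation was not tested. Among the 6 genes, cry-dash and per2 were nearest each other at 0.20, and cry5 and cry2a were farthest apart at 1.89. Outside the 6, wdr76, a WD repeat gene, was the nearest to cry-dash at 0.08 and to per2 at 0.19, and the second nearest to cry5 at 0.29. The vitamin D hydroxylase gene cyp24a1 was the nearest to cry5 at 0.27. After wdr76 came zgc:109934 for cry-dash at 0.10 and plek2, a pleckstrin, for per2 at 0.19. For cry2a these were GPR3, a G protein-coupled receptor, at 0.07 and dnaja1l, an Hsp40 chaperone gene, at 0.08. The nearest to CR391991.1 were abhd4 and keap1a at 0.08 each, while its distance was 0.26 to cry-dash and 0.29 to per2. At its low values the log2(CPM + 1) scale understates the change in CR391991.1, so these distances also reflect the pseudocount. Without a pseudocount, the log2 ratio of CR391991.1 to per2 differed by 0.19 between the groups. The profile of tefb was nearest to that of per3 at 0.06 and of bcl6a, a transcriptional repressor gene, at 0.06. The median distance to the other genes of the table was 0.91 for cry5, 0.66 for cry-dash, 1.02 for cry2a, 0.74 for per2, 0.47 for CR391991.1 and 0.32 for tefb. All these genes had been selected for a difference in the same libraries.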

How the data were processed

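There were 3 libraries of whole-larva RNA per group. Per the methods and labels, the authors trimmed the paired-end reads, aligned them with RSEM to Ensembl transcripts of Zv9 and tested genes with edgeR. Cufflinks, Cuffdiff, TopHat and Bowtie2 2.0.9 appear in the submitters' processing notes too. The deposited values are log2(CPM + 1) per library, for genes past the authors' limits on p and log2 CPM. The authors' fold changes, p and FDR were not used. Turned back into reads, 100% of the values were whole within 0.02. Differences were tested with limma 3.58.1 in R 4.3.3 on the whole table, two-sided, with empirical Bayes moderation and without a trend. The fit was tested on simulated data in which no genes had been selected by p, so that test does not cover the selection of the table. The p-values were adjusted over 24050 tests, the number of annotated genes less those at 0 in every library, because the table had been selected. Exact permutation of 3 against 3 libraries cannot go below p = 0.1.

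The 6 genes and the lists were chosen with earlier results of these data known. Named genes were the 6, the other clock list genes in the table, the 2 nearest profiles per gene and the 2 furthest photoreceptor markers. The keratinocyte marker itgb4 and, in the closing section, opn4.1 and fbxl15 fall outside that rule and were named after their values were seen. The identifiers of 4 genes were in the name table, and 5 had a RefSeq record by symbol or synonym. Promoter and protein sequences were not analysed here. Alternatives were the number of tests, the moderation, the pseudocount, a filter on low values, a replicate block and leaving out each library. Separate pools were raised for the replicates.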

Additional observations from a re-analysis of the deposited data

How the results depend on the processing

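The direction of the 6 differences held in all 77 refits adjusted over 24050 tests, but none of these refits could have reversed it. The groups do not overlap in any of the 6 genes, so neither leaving out a library nor changing the pseudocount can turn a difference around. The moderation, the filter and the replicate block leave the difference itself unchanged. In 72 of the refits the side of the threshold held. The exceptions came with the replicate number as a block, where 5 of the 6 genes passed in limma, with cry5 at 1.63 (adjusted p = 1.18e-05), cry-dash at 1.30 (adjusted p = 0.0002), per2 at 1.37 (adjusted p = 0.00035), cry2a at −1.01 (adjusted p = 0.00424) and CR391991.1 at 1.00 (adjusted p = 0.00561), and 71 genes of the table passed. The prior degrees of freedom were 22.4 with the block and 4.40 without it. Same-numbered libraries showed no shared deviation in the genes of the table, with correlations of −0.001, −0.105 and −0.0001 for numbers 1, 2 and 3. As these genes had been selected by p in the same libraries, the check cannot decide whether the numbers pair the libraries. With the adjustment over the table alone, 6 of the 6 genes and 617 of the table passed, which is not independent evidence. Without each library in turn, 0 of the 6 genes and 0 to 9 genes of the table passed, 9 of them without H2O2 replicate 2 and 1 without H2O2 replicate 3. The differences then ranged from 1.41 to 1.78 for cry5, 1.18 to 1.38 for cry-dash, −1.11 to −0.91 for cry2a, 1.08 to 1.53 for per2, 0.79 to 1.11 for CR391991.1 and 0.46 to 0.60 for tefb. Only CR391991.1 moved by over 1.5 times with the pseudocount, at 0.42 with 5 in place of 1. A filter at a mean of 3 in log2(CPM + 1) left this gene out. Depth limits CR391991.1 most, at 31 to 108 reads per library.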

Other observations

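A pair of genes outside the list were noticed in the table after their values were seen. The melanopsin gene opn4.1, which encodes a light-sensing opsin, had a difference of −0.40 (standard error 0.16, 95% interval −0.76 to −0.04) in log2(CPM + 1), with an overlap between the groups. The F-box gene fbxl15 had a difference of −0.52 (standard error 0.12), and its H2O2 libraries all lay below the untreated libraries. Neither passed in limma over all tests, with adjusted p = 1 for opn4.1 and adjusted p = 0.473 for fbxl15.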
